A study of Gallus gallus with 20 samples.

Results

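The 11 RNA libraries analysed here, from cultured muscle satellite cells (MuSCs) of non-affected broilers, were ordered by how strongly they expressed 3 genes of the committed myoblast, MYOD1, MYOG and CDH15. The score of a library was the mean of log2(CPM + 1) over the 3 genes, where CPM is the read count of a gene relative to the depth of its library, scaled by TMM, a factor that adjusts for composition. The ordering used the 11 non-affected libraries of 20 in the series, and the 5 highest scoring were set against the 5 lowest, with the middle one left out. The libraries were thus selected on measured levels of the 3 genes, which are given as a description without a test.

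The cells were primary skeletal myoblasts grown from the pectoralis major of Ross-308 chickens at 36 days. The study compared birds without and with wooden breast, a myopathy that hardens the breast muscle. According to its methods, cultures went through a step of pre-plating to remove fast-adhering fibroblasts and were sequenced while they proliferated. Birds came from a research flock or an abattoir, and the labels do not say which bird came from where or which passage was sequenced. All 11 non-affected libraries were kept, although the methods describe the removal of outliers from the non-affected group. The non-affected samples that the methods count as kept and as removed add up to the 11 here. The removed outliers are therefore probably among the 11, but the labels do not name them. The affected samples counted in the methods do not match the number in the series, so this is not certain.

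Satellite cells are the stem cells of skeletal muscle. On activation they express MYOD1 and become myoblasts, and when they leave the cell cycle they express MYOG, fuse into myotubes and assemble the contractile apparatus. MYOD1 and MYOG encode transcription factors of the basic helix-loop-helix family, and CDH15 encodes M-cadherin, an adhesion molecule of satellite cells and myoblasts. PAX7 and MYF5, which mark satellite cells and early myoblasts, are not part of the score.

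The high-scoring libraries were NA70, NA68, NA67, NA62 and NA61, the middle one was NA64, and the low-scoring ones were NA69, NA65, NA66, NA61B and NA64B. Values of both sets are given below in these orders. The scores were 8.74, 5.72, 4.83, 4.66 and 4.41 in the high set and 3.37, 3.07, 2.78, 2.76 and 1.33 in the low set, with 3.60 in NA64. The members just inside and just outside the high set, NA61 and NA64, differed by 0.802, and NA64 and NA69 at the edge of the low set by 0.238. The scores of the 9 affected libraries lay between 0.909 and 2.36, so that only NA64B overlapped with them.

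Some libraries stood apart. NA70 scored 3.02 above the next library, and NA64B scored 1.44 below the one before it. NA61B and NA64B carry the same bird numbers as NA61 and NA64, and the labels do not say what the suffix B means. The difference in score was -1.64 for NA61B minus NA61 and -2.28 for NA64B minus NA64. In affected birds it was -0.06 for A16B minus A16 and -0.42 for A76B minus A76. A score cannot fall below 0, and A16 and A76 scored 1.03 and 1.39, so drops as large could not occur there. The 11 libraries therefore represent 9 bird numbers. HINTW, a gene of the female W chromosome, had 0 counts in NA61 and NA61B, which allows up to 3 counts, and between 1316 and 5701 counts in the other 9 libraries, although the birds are described as male. In the affected libraries HINTW had 876 counts in A76 but 0 in A76B, and 9 or fewer in the rest. The pair A76 and A76B thus differed in W transcripts despite the shared bird number. Total counts ranged from 15425103 to 28113814 per library.

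The 3 score genes did not mark the gradient equally. MYOD1 had 558, 92.0, 46.0, 30.1 and 43.9 CPM in the high set, against 25.4, 7.61, 6.63, 7.19 and 1.25 CPM in the low set and 14.0 CPM in NA64. The ranges of the sets did not overlap for MYOD1, with NA70 at 6.07 times the next library. CDH15 had 411, 83.2, 28.7, 42.4 and 52.5 CPM in the high set, against 14.3, 11.4, 24.2, 22.6 and 5.58 CPM in the low set, again without overlap. MYOG, which marks the entry into differentiation, had 339, 17.8, 15.6, 11.1 and 2.96 CPM in the high set, against 1.71, 4.56, 0.678, 0.612 and 0.0627 CPM in the low set. For MYOG the sets overlapped, since NA65 lay above NA61, and NA70 had 19.1 times the level of NA68. MYOG rested on 1 count in NA64B. In the affected libraries MYOG lay between 0.183 and 0.521 CPM, and MYOD1 ranged from 0.317 to 9.91 CPM.

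**Figure D1:**
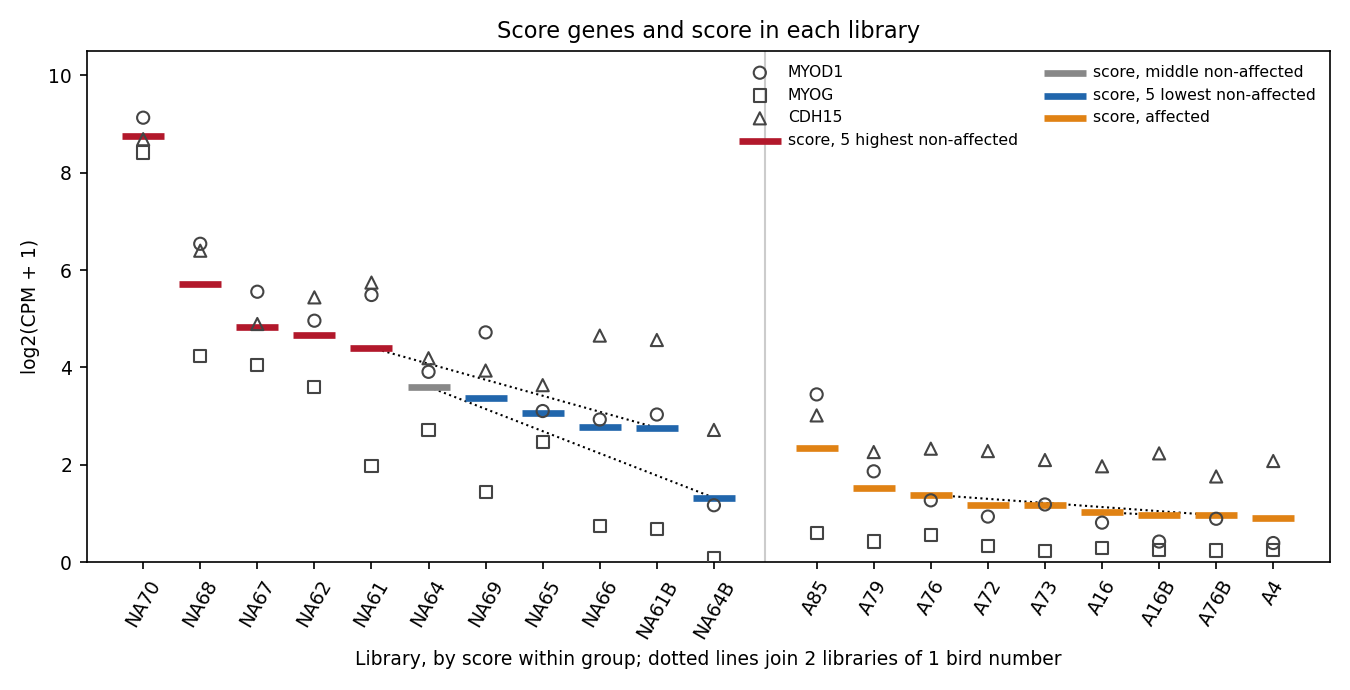
Level of MYOD1, MYOG and CDH15 (open symbols, log2(CPM + 1)) and their mean, the score (bars), in each of the 11 non-affected and 9 affected libraries, ordered by score within the group. NA70 at 8.74 stands above NA68 at 5.72, and dotted lines join libraries of the same bird number, of which NA61B and NA64B lie below their partners.

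To ask which other genes vary with the score, each gene with a mean count of at least 10 was tested with the quasi-likelihood test of edgeR. The result is a slope, the log2 change in level for each unit of the score. Of 14742 genes tested, 510 were higher with the score (3.46% of the genes tested) and 356 were lower (2.41%), taking as called each gene whose adjusted p did not exceed 0.05. The median slope over all tested genes was -0.01. Most of these calls rested on NA70. It had the highest level of the 11 libraries in 497 of the 510 genes called higher, or 97.5%, against 15.02% of all tested genes. In 289 of the 510 it had more than 2 times the level of the next library. Of the 510, 470 still reached a mean count of 10 without NA70. The rest passed the filter through NA70, so its high level in them follows from the filter. Likewise NA70 was the lowest library in 336 of the 356 genes called lower, or 94.4%, against 16.52% of all tested genes.

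Without NA70, 28 of 14651 genes were higher with the score (0.191%) and 13 were lower (0.0887%). Of these, 27 and 11 were also called with all 11 libraries. Every other call below was lost or could not be tested without NA70, unless its adjusted p without NA70 is given and is under 0.05. The directions were largely kept, because 461 of the 470 called genes that could still be tested were positive, and 356 of 356 were negative. The count without NA70 in turn rested on NA64B, the lowest library. With NA64B left out as well, CAMK2A was the one gene called higher by edgeR and 0 were called lower. There 28 of the 28 and 13 of the 13 genes kept their direction at an unadjusted p under 0.05. The libraries of each repeat were also part of the fit that chose its genes. The kept directions and small p values therefore describe the calls and are not independent of them. When NA64B alone was left out and NA70 kept, 714 genes were called higher and 677 lower, and when NA68 alone was left out, 219 were called lower.

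**Figure D2:**
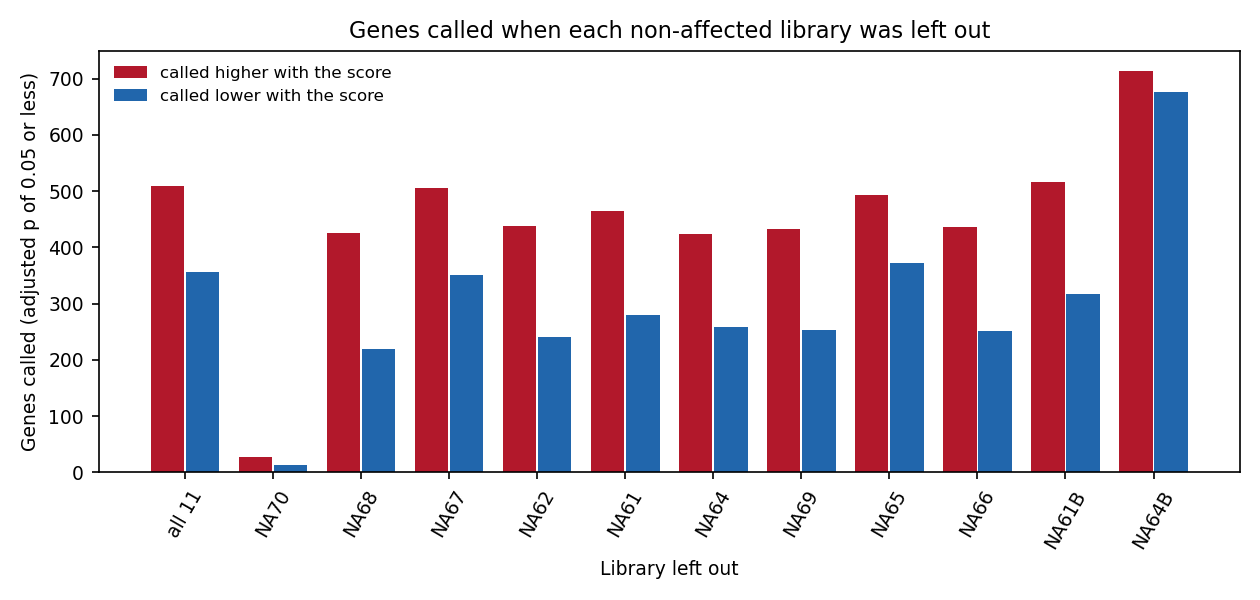
Number of genes called higher (red) and lower (blue) with the score at an adjusted p of 0.05 or less, with all 11 non-affected libraries and with each library left out, in the order of the score. The bars fall to 28 and 13 without NA70 and reach 714 and 677 without NA64B.

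As a description of the 2 sets, 210 genes had all 5 high libraries above all 5 low ones (1.42% of the genes tested) and 282 had all 5 below (1.91%). Of the 510 genes called higher, 90 showed this separation, as did 131 of the 356 genes called lower. The non-affected pairs of one bird number followed the same order. Among the genes called higher, 58.8% were lower in the suffix B library in both non-affected pairs, against 20.4% of all tested genes. Among the genes called lower, 78.7% were higher in the suffix B library in both pairs, against 22.7% of all tested genes. These 4 libraries are part of the fit, so the shares describe the calls and are not independent of them.

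The early myogenic factors PAX7, PAX3, MYF5 and MYF6 did not pass the threshold with the score. PAX7 had 186, 215, 124, 158 and 169.9 CPM in the high set, against 166, 82.3, 98.9, 162 and 20.004 CPM in the low set. The sets overlapped, and NA64B alone fell far below the other libraries. Its slope was 0.26 ± 0.11 (SE) with an adjusted p of 0.21 by edgeR. PAX3, its paralog, had 29.0, 23.8, 42.7, 39.1 and 27.8 CPM in the high set, against 34.5, 4.61, 19.5, 36.3 and 14.2 CPM in the low set, also with overlap (slope 0.11, adjusted p = 0.691). MYF5, a myogenic regulatory factor of activated satellite cells, had 95.0, 158, 43.0, 45.8 and 93.2 CPM in the high set, against 70.8, 6.57, 40.0, 63.6 and 14.0 CPM in the low set, with a slope of 0.37 and an adjusted p of 0.191. MYF6, the remaining member of that family, had a slope of 0.32 and an adjusted p of 0.389. The slopes were larger without NA70, at 0.49 for PAX7, 0.27 for PAX3, 0.61 for MYF5 and 0.48 for MYF6. None was called there (adjusted p = 0.223, 0.534, 0.24 and 0.505 by edgeR). A p above the threshold does not show that the levels of these genes were equal.

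Of 27 tested progenitor factors, 3 were called higher, against 3.46% of all tested genes, and the median slope was -0.02, against -0.01 over all tested genes. They were NCAM1, a neural cell adhesion molecule of myogenic cells (slope 0.65 ± 0.11, adjusted p = 0.00395), the Notch ligand JAG2 (slope 0.38, adjusted p = 0.0442) and MET, the receptor of hepatocyte growth factor (slope 0.23, adjusted p = 0.0428, or 0.39 and 0.0825 without NA70). NCAM1 had 863, 151, 76.8, 84.3 and 123 CPM in the high set, against 70.7, 26.8, 52.5, 142 and 9.66 CPM in the low set, and NA61B lay within the range of the high set. LBX1, a homeobox factor of migrating limb muscle precursors, was not called (adjusted p = 0.0653), although its high set lay above its low set.

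Of 21 tested regulatory and partner factors of myogenesis, 5 were called higher, against 3.46% of all tested genes, and the median slope was 0.17. MEF2C and MEF2D encode MADS-box factors that act with MYOD1 and MYOG on muscle promoters. MEF2C had 40.2, 7.29, 9.43, 5.36 and 9.64 CPM in the high set, against 6.25, 0.984, 3.53, 6.94 and 0.376 CPM in the low set, with a slope of 0.60 ± 0.12 and an adjusted p of 0.0152. The ranges overlapped, and NA65 and NA64B were lowest. MEF2D had a slope of 0.24 (adjusted p = 0.00311), and MEF2A missed the threshold with a slope of 0.17 and an adjusted p of 0.0508. EYA1, a transcriptional coactivator of muscle precursors, had 27.3, 1.73, 5.64, 3.22 and 4.71 CPM in the high set, against 2.57, 0.984, 2.07, 4.28 and 1.19 CPM in the low set (slope 0.54, adjusted p = 0.00589), and its slope without NA70 was 0.31 (adjusted p = 0.477). KLHL31, a kelch protein of muscle, was called through NA70, where it had 15.1 CPM against at most 1.116 CPM elsewhere. KLHL31 was too low for a test without NA70. MEF2C then kept a slope of 0.66 but not the call (adjusted p = 0.289).

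Of 15 tested factors that hold back differentiation, 1 was called higher and 2 lower, against 3.46% and 2.41% of all tested genes. Without NA70, 0 of the 15 were called, against 0.191% of all tested genes called higher and 0.0887% called lower. ID2, an inhibitor of basic helix-loop-helix factors, had 84.3, 145, 146, 86.5 and 116 CPM in the high set, against 192, 144, 187, 169.6 and 209.6 CPM in the low set, and was called lower (slope -0.17 ± 0.05, adjusted p = 0.0482), with NA68 and NA67 level with NA65. TWIST1, a repressor of myogenesis, had 19.4, 25.7, 21.0, 27.1 and 21.9 CPM in the high set, against 56.2, 31.4, 32.3, 51.0 and 51.4 CPM in the low set. The sets did not overlap for TWIST1, and it was called lower (slope -0.21, adjusted p = 0.0493). ZEB1, a zinc finger repressor, was called higher (slope 0.24, adjusted p = 0.0269). ID4 was not called (slope -0.27, adjusted p = 0.084). The other 11 of 15 tested genes of this list were not called either.

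Among genes of adhesion and fusion, TMEM8C stood out. It is the older symbol of myomaker, the membrane protein required for myoblast fusion, and lies on chromosome 17, 7564776 to 7571486 in GRCg7b. TMEM8C had 289, 32.2, 20.8, 16.7 and 11.6 CPM in the high set, against 6.96, 5.18, 2.71, 8.01 and 1.07 CPM in the low set and 7.66 CPM in NA64. The sets did not overlap, and its slope was 1.01 ± 0.05 (adjusted p = 9.82e-07). Without NA70 the slope was 1.03 (adjusted p = 0.00924). CAV3, the muscle caveolin, was called (slope 0.89, adjusted p = 0.00589) but had 8.12 CPM in NA70 and at most 0.569 CPM in any other library. JAM3, a junctional adhesion molecule, had 1026, 303, 246, 177 and 212 CPM in the high set, against 159, 489, 154, 229 and 103 CPM in the low set, with NA65 next below NA70 (slope 0.35, adjusted p = 0.0264). Without NA70 its slope was 0.17 (adjusted p = 0.604) and CAV3 was too low for a test. These were the 3 genes called of 23 tested in the list, against 3.46% of all tested genes, and the median slope of the list was -0.01.

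The gene with the smallest p of all was CAMK2A, on chromosome 13, 12795785 to 12818019. It encodes the alpha subunit of the calcium/calmodulin-dependent kinase CaMKII. CAMK2A had 218, 26.2, 9.71, 11.7 and 11.7 CPM in the high set, against 3.53, 3.88, 2.53, 2.35 and 0.752 CPM in the low set and 7.44 CPM in NA64. No low library reached the high range, and the middle library lay between the sets. Its slope was 1.08 ± 0.04 (adjusted p = 1.06e-07), and without NA70 it was 1.14 (adjusted p = 0.0017). It was called in 17 of 17 fits run without NA70, this one included, with an adjusted p of 0.0423 or less. Its Spearman correlation with the score over the 11 libraries, which is a description, was 0.964.

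Other genes with small p values included RBM24, an RNA-binding protein that controls muscle splicing. It had 387, 45.8, 19.4, 28.2 and 20.04 CPM in the high set, against 15.2, 13.3, 14.0, 18.2 and 4.77 CPM in the low set, without overlap (slope 0.79 ± 0.05, adjusted p = 6.66e-06). SARDH, the mitochondrial sarcosine dehydrogenase, had 225, 30.3, 28.6, 15.98 and 10.2 CPM in the high set, against 8.22, 7.195, 7.63, 7.35 and 3.64 CPM in the low set (slope 0.81, adjusted p = 9.82e-07). SARDH lies on chromosome 17, 7632458 to 7655380, near TMEM8C. CASS4, a scaffold protein of the Cas family, had 72.8, 5.55, 2.57, 2.55 and 1.92 CPM in the high set, against 1.11, 0.828, 0.927, 0.153 and 0.125 CPM in the low set (slope 1.171, adjusted p = 1.32e-06). Neither SARDH nor CASS4 overlapped between the sets. Without NA70 the adjusted p was 0.033 for RBM24, 0.00924 for SARDH and 0.0206 for CASS4. TRIM55, a muscle ubiquitin ligase of the sarcomere, overlapped through NA61 (slope 0.84, adjusted p = 3.88e-05).

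Genes ordered much like the score by Spearman correlation over the 11 libraries included ZDHHC2 (0.982), SP3 (0.973), and CAMK2A and CHRNA1 (both 0.964). ZDHHC2, a palmitoyltransferase, had 67.5, 24.7, 23.7, 19.2 and 18.1 CPM in the high set, against 17.5, 15.6, 16.2, 13.3 and 9.72 CPM in the low set (slope 0.35 ± 0.03, adjusted p = 4.31e-05). The transcription factor SP3 followed the order with a small slope of 0.12 (adjusted p = 0.0372, or 0.19 and 0.0813 without NA70), and its levels ran between 73.9 CPM in NA70 and 39.2 CPM in NA64B.

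**Figure D3:**
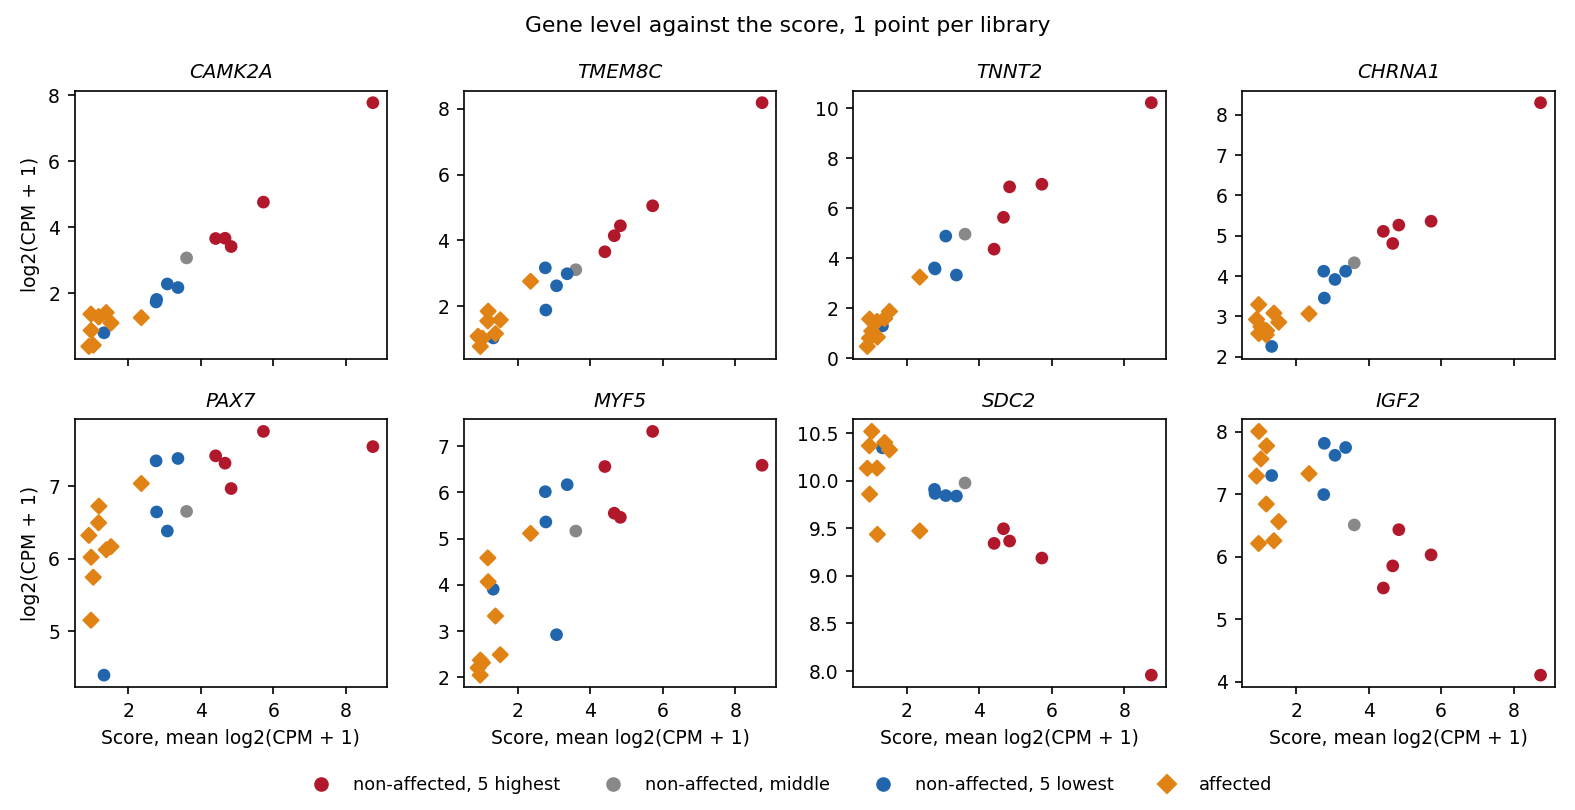
Level of 8 genes (log2(CPM + 1)) against the score, 1 point per library, in non-affected libraries (circles, red for the 5 highest, grey for the middle and blue for the 5 lowest) and affected libraries (orange diamonds). CAMK2A, TMEM8C, TNNT2 and CHRNA1 are highest in NA70 at a score of 8.74, PAX7 and MYF5 are no higher there than in NA68 at 5.72, and SDC2 and IGF2 are lowest in NA70.

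Genes of the contractile apparatus and the muscle membrane were the most often called of those listed by function. In 6 lists of sarcomere, troponin, Z-disc, calcium, synapse and membrane genes, 117 of 127 genes were tested and 42 were called, each higher with the score, against 3.46% of all tested genes. Their median slope was 0.17, against -0.01 over all tested genes. NA70 was the highest library in 42 of the 42. Without NA70, 7 of 111 were called, each higher, against 0.191% of all tested genes. Of the called genes that could be tested, 36 of 36 were positive. The libraries of this repeat were part of the fit that made the calls, so these directions are not independent of it. The median slope of these lists was then 0.07. The genes no longer tested passed the filter on low counts through NA70, so that the 42 calls do not describe all members. Summed by list, levels in the 11 libraries were highest in NA70 for the Z-disc, calcium and synapse lists. The sarcomere sum was highest in NA66, at 4071 CPM against 3098 CPM in NA70. The troponin and tropomyosin sum was highest in NA64B, at 5262 CPM against 4707 CPM in NA70, and the membrane sum was highest in NA62.

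Among sarcomeric myosins and actins, 6 of 18 tested genes were called higher, against 3.46% of all tested genes. The fit without NA70 called 0 of 16, against 0.191% of all tested genes called higher. There 8 of the 16 slopes were positive, against 46.6% of all tested genes. ACTC1, the cardiac alpha-actin that immature skeletal muscle also makes, had 1336, 183, 71.6, 41.2 and 51.7 CPM in the high set, against 11.1, 27.6, 10.02, 69.5 and 3.198 CPM in the low set (slope 0.98 ± 0.12, adjusted p = 0.00049). The sets overlapped because NA61B exceeded NA62 and NA61. MYLPF, the regulatory light chain of fast myosin, had 165, 6.51, 10.49, 4.19 and 0.929 CPM in the high set, against 0.907, 5.02, 0.927, 1.68 and 0.314 CPM in the low set (slope 1.07, adjusted p = 0.000336). UNC45B, a myosin chaperone, had 50.7, 3.404, 2.23, 2.09 and 0.407 CPM in the high set, against 0.252, 0.776, 0.499, 0.153 and 0.251 CPM in the low set (slope 1.096, adjusted p = 7.34e-05). For both genes NA61 fell into the low range, and for MYLPF NA62 also lay below NA65 of the low set. The light chains MYL10 (slope 1.01, adjusted p = 0.00207) and MYL1 (slope 0.94, adjusted p = 0.0224) were called as well, with NA70 at 34.8 and 9.89 CPM. Without NA70, MYL1 was too low for a test, and the adjusted p was 0.154 for ACTC1 and 0.133 for UNC45B.

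Troponins, the calcium switch of the thin filament, were called in 5 of 13 tested genes of their list, against 3.46% of all tested genes. Of 12 genes tested without NA70, 2 were called higher, against 0.191% of all tested genes. There 6 of the 12 had a positive slope, against 46.6% of all tested genes. TNNT2, the cardiac troponin T that embryonic skeletal muscle also makes, had 1202, 124, 115, 48.8 and 19.6 CPM in the high set, against 9.02, 28.6, 10.9, 11.2 and 1.44 CPM in the low set and 30.2 CPM in NA64. NA65 lay above NA61, and the other libraries kept to their sets. Its slope was 1.18 ± 0.10 (adjusted p = 4.31e-05), and without NA70 it was 1.33 (adjusted p = 0.0266). TNNI2, the fast skeletal troponin I on chromosome 5, 13701258 to 13714653, had 109, 17.4, 7.14, 8.83 and 5.58 CPM in the high set, against 3.53, 2.90, 2.64, 3.93 and 0.941 CPM in the low set. It did not overlap and had a slope of 0.89 ± 0.04 (adjusted p = 3.98e-07), or 0.85 without NA70 (adjusted p = 0.00751). The slow forms TNNI1 (slope 0.76, adjusted p = 0.000363) and TNNC1 (slope 0.68, adjusted p = 0.00104) were called with NA70 and lost without it (slopes 0.49 and 0.29, adjusted p = 0.202 and 0.369).

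Of 25 tested Z-disc and titin genes, 9 were called higher, against 3.46% of all tested genes. Leaving out NA70 kept 2 calls, against 0.191% of all tested genes called higher there. Then 14 of the 25 slopes were positive, against 46.6% of all tested genes. MYOZ2, a calcineurin-binding protein of the Z-disc, had 100.1, 18.0, 5.53, 7.96 and 6.27 CPM in the high set, against 4.23, 2.12, 2.78, 3.42 and 2.01 CPM in the low set. The sets did not overlap, with NA70 far above the rest (slope 0.81 ± 0.05, adjusted p = 3.8e-06, or 0.0211 without NA70). ACTN2, the sarcomeric alpha-actinin, had 125, 7.05, 11.6, 5.26 and 1.104 CPM in the high set, against 2.62, 5.38, 3.42, 2.09 and 0.251 CPM in the low set (slope 0.93, adjusted p = 0.000413). MYPN, which binds actinin and nebulin, did not overlap (slope 0.96, adjusted p = 6.63e-05), and SYNPO2L overlapped (slope 1.09, adjusted p = 0.000381). DES, the muscle intermediate filament and a marker of myogenic cells, was not called. It had 259, 67.1, 25.3, 14.9 and 15.98 CPM in the high set, against 40.5, 8.96, 39.3, 108 and 23.1 CPM in the low set (adjusted p = 0.13). NA61B, in the low set, had the highest DES level after NA70.

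**Figure D4:**
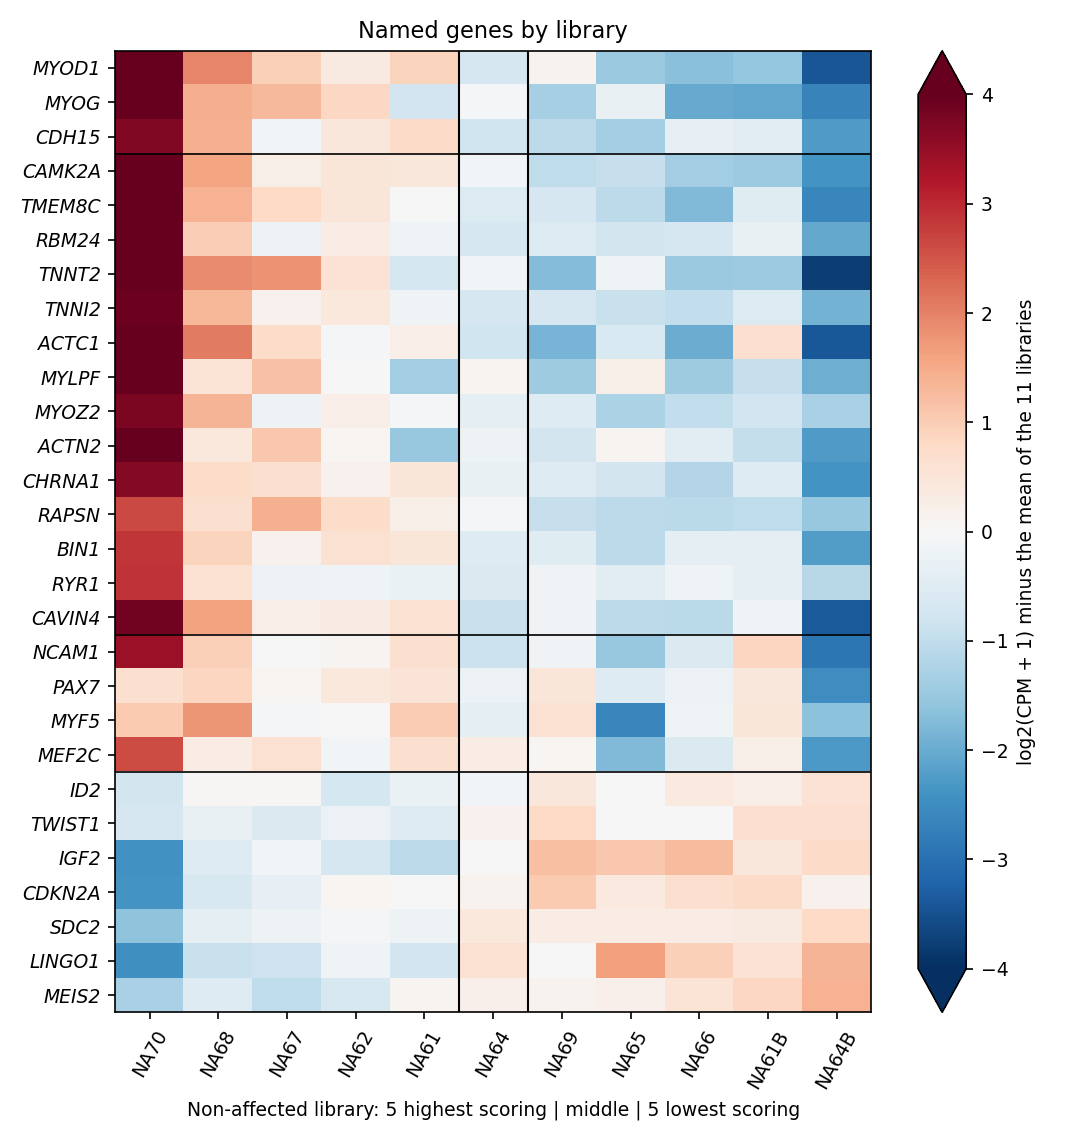
Levels of 28 named genes in the 11 non-affected libraries, ordered by score from left to right, as log2(CPM + 1) minus the mean of each gene over the 11 libraries. The score genes are at the top, called muscle genes below them, then NCAM1, PAX7, MYF5 and MEF2C, and genes called lower at the bottom. NA70 is darkest in both directions, and NA64B is the opposite for most muscle genes. Colours beyond 4 are drawn at 4.

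Of 21 tested genes of excitation-contraction coupling and calcium storage, 7 were called higher, against 3.46% of all tested genes. The fit without NA70 called 1 of 19, against 0.191% of all tested genes called higher. There 11 of the 19 slopes were positive, against 46.6% of all tested genes. BIN1, which shapes the T-tubule membrane, had 1253, 323, 193, 263 and 244 CPM in the high set, against 122, 83.9, 134, 136 and 35.8 CPM in the low set, without overlap (slope 0.62 ± 0.05, adjusted p = 3.46e-05, or 0.0266 without NA70). RYR1, the calcium release channel of skeletal muscle, had 569, 117, 64.1, 68.0 and 63.6 CPM in the high set, against 69.0, 57.1, 67.6, 57.9 and 34.7 CPM in the low set. Apart from NA70 and NA68 above and NA64B below, the libraries of both sets lay close together (slope 0.51, adjusted p = 0.000152, or 0.28 and 0.132 without NA70). CASQ2, a calcium store protein (slope 0.82, adjusted p = 0.000381), and SRL, a sarcoplasmic reticulum protein (slope 0.87, adjusted p = 4.04e-05), were called. CACNG1, a subunit of the muscle calcium channel, had the largest log2 ratio of high over low means among the listed muscle genes, 5.68, with 12.5, 1.31, 1.23, 0.970 and 0.174 CPM in the high set, against 0, 0.104, 0.0357, 0.0510 and 0.125 CPM in the low set. Without NA70, CACNG1 and SRL were too low for a test.

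The list of the acetylcholine receptor and the neuromuscular synapse had the highest median slope, 0.41. Of its 15 tested genes, 8 were called higher, against 3.46% of all tested genes. Leaving out NA70 kept 2 calls, against 0.191% of all tested genes called higher there. Then 12 of the 15 slopes were positive, against 46.6% of all tested genes. CHRNA1, the alpha subunit of the muscle receptor, on chromosome 7, 16422353 to 16434154, had 315, 40.1, 37.5, 27.0 and 33.5 CPM in the high set, against 16.4, 14.1, 9.95, 16.4 and 3.76 CPM in the low set and 19.1 CPM in NA64. Its order was close to that of the score and the sets did not overlap. Its slope was 0.79 ± 0.04 (adjusted p = 9.82e-07), or 0.75 without NA70 (adjusted p = 0.00924). RAPSN, which clusters the receptor, had 34.6, 7.94, 14.2, 8.53 and 5.81 CPM in the high set, against 2.02, 1.76, 1.71, 1.84 and 1.003 CPM in the low set (slope 0.76 ± 0.09, adjusted p = 0.000413, or 0.0266 without NA70). CHRNG, the fetal gamma subunit (slope 0.68, adjusted p = 0.000352), and ACHE, the enzyme that splits acetylcholine (slope 0.87, adjusted p = 0.000381), were called with NA70, at 22.3 and 44.0 CPM there, and not without it (slopes 0.40 and 0.64, adjusted p = 0.212 and 0.186). This was the list whose median slope stayed largest without NA70, at 0.36.

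Of 25 tested genes of the dystrophin complex and membrane repair, 7 were called higher, against 3.46% of all tested genes. Of 24 genes tested without NA70, 0 were called, against 0.191% of all tested genes called higher. There 17 of the 24 had a positive slope, against 46.6% of all tested genes. CAVIN4, a muscle protein of caveolae, had 177, 36.8, 13.7, 14.3 and 17.7 CPM in the high set, against 10.03, 4.92, 4.85, 10.1 and 0.188 CPM in the low set, without overlap (slope 0.91 ± 0.10, adjusted p = 0.000381). The Popeye genes, which bind cyclic AMP at the membrane, were called together. BVES had a slope of 0.86 (adjusted p = 0.000303), POPDC2 of 0.73 (adjusted p = 0.001) and POPDC3 of 0.93 (adjusted p = 8.43e-05). POPDC3 had 32.1, 4.42, 2.29, 2.20 and 2.498 CPM in the high set, against 1.76, 0.984, 0.428, 1.22 and 0.0627 CPM in the low set. Without NA70 the adjusted p was 0.108 for CAVIN4 and 0.0944 for POPDC3.

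**Figure D5:**
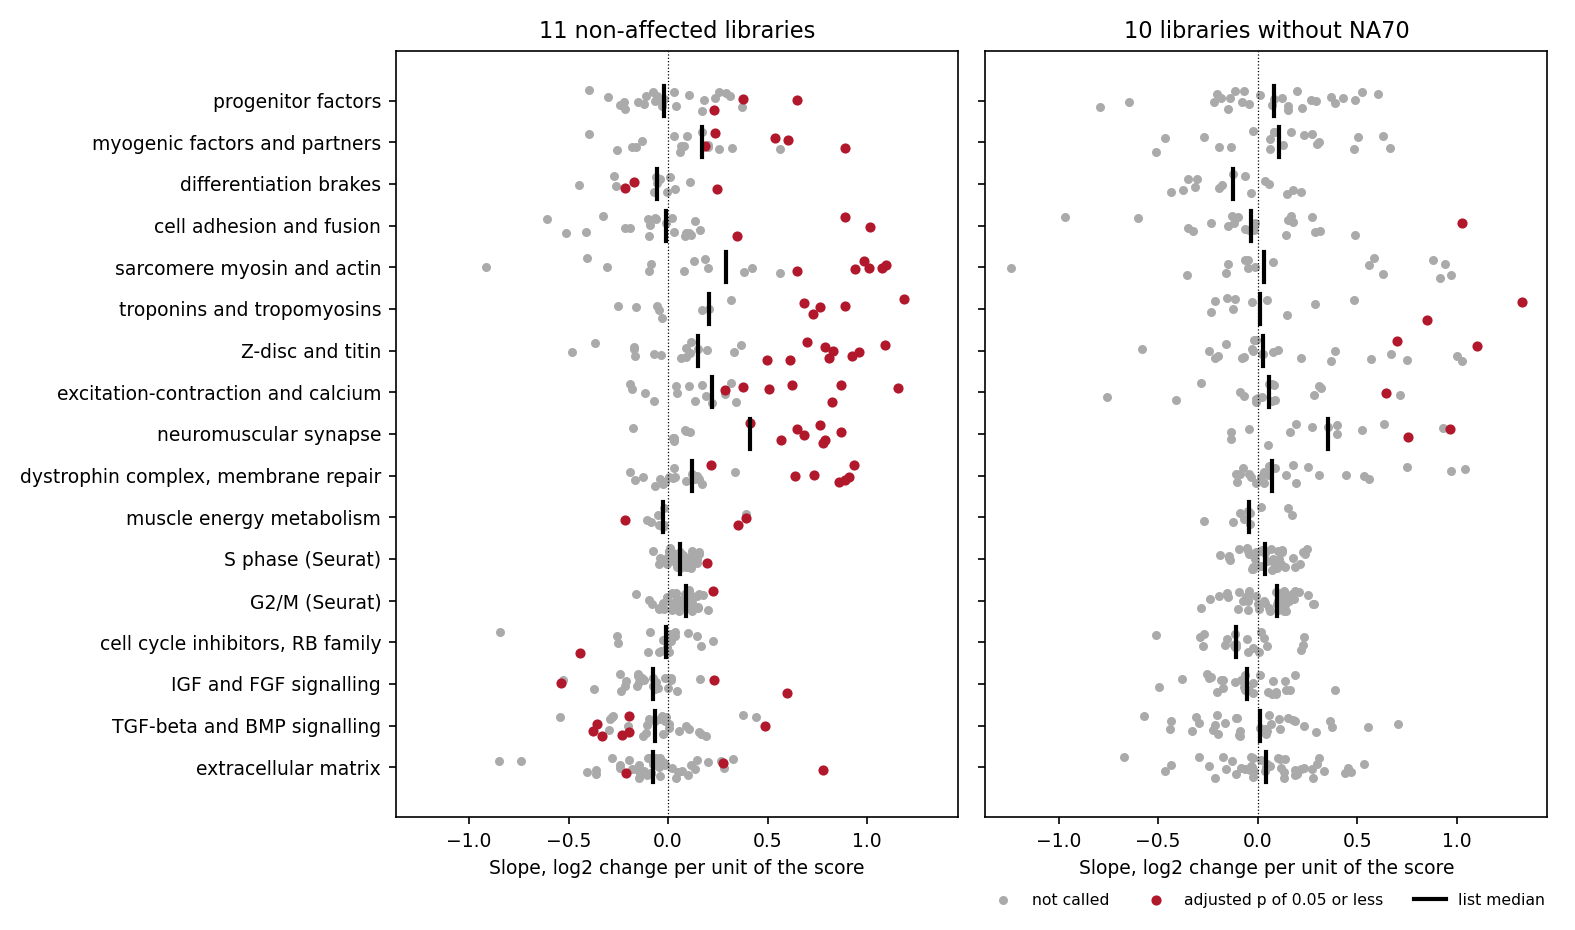
Slopes (log2 change per unit of the score) of every tested gene in 17 lists, with all 11 non-affected libraries on the left and with the 10 libraries without NA70 on the right. Red points have an adjusted p of 0.05 or less and black bars are list medians. The contractile and synapse lists reach to the right with NA70, and 7 genes of those 6 lists remain red without it.

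Energy metabolism of muscle did not move as one. Of 11 tested genes, 2 were called higher and 1 lower, against 3.46% and 2.41% of all tested genes. PFKM, the muscle phosphofructokinase (slope 0.35, adjusted p = 0.0106), and CKB, the brain-type creatine kinase (slope 0.39, adjusted p = 0.0268), were higher. Without NA70 their slopes were 0.17 and 0.15 (adjusted p = 0.458 and 0.664). ALDOC, an aldolase, was lower, with 822, 1154, 1389, 1262 and 1236 CPM in the high set, against 1537, 1829, 1751, 1286 and 2978 CPM in the low set (slope -0.22 ± 0.04, adjusted p = 0.00917). AMPD1 was not called (slope 0.39, adjusted p = 0.0831).

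Genes of the cell cycle were called at a share near that of all genes, 3.46%. Of 42 tested S phase genes 36 had a positive slope, against 45.2% of all tested genes, and 1 was called, DSCC1, which loads the replication clamp (slope 0.20, adjusted p = 0.0462). Of 44 tested G2/M genes 36 were positive and 1 was called, CKAP5, a microtubule polymerase of the spindle (slope 0.23, adjusted p = 0.00872). The median slopes were 0.06 and 0.09, and without NA70 the positive slopes numbered 26 of 42 and 28 of 44, against 46.6% of all tested genes. The summed level of the S phase list ranged from 1711 to 2753 CPM in the high set and from 1332 to 2726 CPM in the low set. MCM4 and MCM6, subunits of the replicative helicase, had slopes of 0.16 and 0.15 and were not called (adjusted p = 0.168 and 0.121). NA64B, lowest by score, had 2726 CPM, the highest S phase sum after NA68 and NA61, so the score did not order the libraries by these genes.

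Among 21 tested inhibitors of the cycle and retinoblastoma family genes, 1 was called, against 2.41% of all tested genes called lower. CDKN2A, a gene of the cycle brake known in mammals to accumulate in senescent cells, was lower with the score. It had 54.3, 187, 229.9, 306 and 295 CPM in the high set, against 599.7, 379.5, 461, 494 and 327 CPM in the low set, without overlap (slope -0.44 ± 0.08, adjusted p = 0.00914, or -0.29 and 0.258 without NA70). CDKN1A, the p21 inhibitor, had 71.5, 70.3, 170.4, 201 and 104 CPM in the high set, against 237, 191, 125, 287 and 217 CPM in the low set, and was not called (slope -0.25, adjusted p = 0.0884). CDKN1C, an inhibitor linked to muscle differentiation, had a slope of -0.26 (adjusted p = 0.111) and CDKN1B one of 0.03 (adjusted p = 0.701). CDKN2B, an inhibitor of the G1 kinases, varied widely, with 5.15, 41.1, 221, 116 and 25.6 CPM in the high set, against 322, 642, 153, 129.6 and 185 CPM in the low set, and was not called (adjusted p = 0.0871).

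Among the genes lower with the score, the first by p was SDC2. It encodes syndecan-2, a heparan sulfate proteoglycan of the cell surface, on chromosome 2, 126507512 to 126564775. SDC2 had 247, 582, 659, 721 and 648 CPM in the high set, against 915, 918, 932, 960.2 and 1299.7 CPM in the low set and 1006 CPM in NA64. The sets did not overlap, and NA64 lay with the low set. Its slope was -0.32 ± 0.03 (adjusted p = 0.000232), or -0.27 without NA70 (adjusted p = 0.0493), and it was called in 3 of 17 fits without NA70.

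MEIS2, a homeobox factor of the TALE class, had 4.503, 8.48, 5.69, 7.66 and 13.7 CPM in the high set, against 13.8, 14.5, 18.6, 23.2 and 34.7 CPM in the low set, which just parted at NA61 and NA69 (slope -0.40 ± 0.06, adjusted p = 0.00242, or 0.033 without NA70). LINGO1, a leucine-rich membrane protein known from neurons, had 3.203, 11.5, 11.8, 19.5 and 12.5 CPM in the high set, against 21.4, 69.99, 43.7, 33.1 and 57.2 CPM in the low set (slope -0.63, adjusted p = 0.00156). CASTOR1, a sensor of arginine for the kinase mTORC1, parted without overlap (slope -0.42, adjusted p = 0.000876), as did ARHGDIG (slope -0.50, adjusted p = 0.00219). The lipid transporter MFSD2A (slope -0.25), the kinase MAP4K5 (slope -0.23), the transporter gene SLC35E4 (slope -0.31) and the protocadherin PCDH9 (slope -0.77) were also among the first 10 by p, with adjusted p values of 0.00176, 0.00199, 0.000888 and 0.0017 by edgeR. Of the genes named here, SDC2 and MEIS2 were also called without NA70.

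Growth factor genes were called in both directions. IGF2, an insulin-like growth factor, had 16.2, 64.3, 85.3, 56.8 and 44.2 CPM in the high set, against 214, 196, 224, 126 and 156 CPM in the low set. The sets did not overlap, and NA70 was lowest (slope -0.54 ± 0.10, adjusted p = 0.00861, or 0.18 without NA70). It was the one gene called lower of 29 tested in the list of insulin-like and fibroblast growth factor signalling, beside MET and FGF7 as the 2 called higher, against 2.41% and 3.46% of all tested genes. FGF7 had 3.81 CPM in NA70 and passed the filter on low counts through that library. Of 33 tested genes of TGF-beta and BMP signalling, 6 were called lower and 1 higher, against 2.41% and 3.46% of all tested genes. TGFB1, a ligand that restrains myoblast differentiation, had 496, 763, 590.1, 799.5 and 689 CPM in the high set, against 1303, 1039, 1114, 978 and 1214 CPM in the low set, without overlap (slope -0.19, adjusted p = 0.019). SMAD6, an inhibitor of BMP signals (slope -0.38, adjusted p = 0.00531), and CYR61, a matricellular protein (slope -0.19, adjusted p = 0.0155), were lower. The ligand BMP7 was higher (slope 0.49, adjusted p = 0.00882). Without NA70 the adjusted p was 0.168 for TGFB1, 0.162 for SMAD6 and 0.185 for BMP7.

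The extracellular matrix list had 45 tested genes, of which 2 were called higher and 1 lower, near the 3.46% and 2.41% of all tested genes, with a median slope of -0.07. LAMB1, a laminin chain of the basement membrane, had 72.4, 39.5, 30.9, 26.1 and 46.2 CPM in the high set, against 27.3, 20.7, 15.9, 28.7 and 18.2 CPM in the low set (slope 0.28 ± 0.05, adjusted p = 0.00491). LAMA4 was called on 8.17 CPM in NA70 and was too low for a test without it, and TIMP2, an inhibitor of matrix proteases, was lower (slope -0.21, adjusted p = 0.0181).

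Markers of other cells were measured beside these results, since a culture with fewer myogenic cells and one with less myogenic RNA per cell cannot be told apart in bulk RNA. The fibroblast and mesenchymal list, 2 of 11 tested genes called, both lower (2.41% of all tested genes), summed to between 7855 and 19809 CPM in the high set and between 7608 and 22394 CPM in the low set. COL1A1 was the largest part of each sum, at 4431 to 14021 CPM in the high set and 3639 to 16783 CPM in the low set. NA70 and NA69 were the lowest libraries of their sets. The 2 genes were THY1 (slope -0.19, adjusted p = 0.0383) and OSR1 (slope -0.82, adjusted p = 0.0339), and without NA70 neither was called (slopes -0.11 and -0.90, adjusted p = 0.411 and 0.163). PDGFRA, a defining marker of mesenchymal progenitors, had 0.139, 1.67, 2.68, 0.664 and 0.988 CPM in the high set, against 6.30, 2.07, 6.63, 9.64 and 1.88 CPM in the low set, with overlap. PDGFRA was not called (slope -0.77, adjusted p = 0.119). Of the 11 tested genes of the list, 1 had a positive slope, against 45.2% of all tested genes. Without NA70, 6 of the 11 had one, against 46.6% of all tested genes.

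For smooth muscle and pericytes, 8 of 8 tested genes had a negative slope, whereas 45.2% of all tested genes had a positive one. Their list summed to 1759.8 to 6595 CPM in the high set and 3338 to 7203 CPM in the low set. ACTA2, smooth muscle actin, had 194, 1501, 2530.3, 1503 and 1015 CPM in the high set, against 1089.9, 2262, 1709.6, 2451 and 2093 CPM in the low set, and was not called (slope -0.39, adjusted p = 0.125). NA70 alone was far below the rest, and without it 5 of the 8 slopes were positive, against 46.6% of all tested genes. RGS5, a defining pericyte marker, was at 1.14 CPM or less in every library.

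The macrophage list summed to 24.4 to 59.4 CPM in the high set and 32.3 to 93.4 CPM in the low set. Of its 11 tested slopes 3 were positive, against 45.2% of all tested genes. The endothelial list summed to 40.8 to 91.6 CPM in the high set and 94.3 to 199 CPM in the low set, which did not overlap, and ERG was the 1 gene called of 9 tested (slope -0.27, adjusted p = 0.015). ERG had 16.7 to 59.1 CPM in the high set and 53.8 to 77.4 CPM in the low set, with overlap. It was the largest part of each sum except in NA65, where TEK had 92.8 CPM. The endothelial markers CDH5 and KDR were near 0, with at most 1.45 and 1.28 CPM. The adipocyte list summed to 708 to 1040.2 CPM in the high set and 521 to 1044 CPM in the low set, and PPARG was the 1 gene called of 10 (slope -0.25, adjusted p = 0.0315). The Schwann cell list summed to 125 to 325 CPM in the high set and 324 to 458 CPM in the low set, and PMP22 was the 1 gene called of 6 (slope -0.28, adjusted p = 0.00758), while SOX10 reached at most 0.353 CPM. Each of these 3 calls was a gene lower with the score, against 2.41% of all tested genes, and without NA70 the slopes were -0.15 for ERG, -0.10 for PPARG and -0.30 for PMP22 (adjusted p = 0.289, 0.422 and 0.148). Erythrocyte genes summed to at most 0.357 CPM, with HBA1 at 0 counts in all 11 libraries, which allows up to 3 counts. NA70 had the lowest sum of the 11 libraries for smooth muscle, macrophage, endothelial and Schwann cell genes, and the part of other cells in the calls was not tested.

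Technical measures did not pass the threshold over all 11 libraries. Pearson's r with the score was -0.155 for the total count (permutation p = 0.613) and -0.140 for the number of genes with a count (permutation p = 0.650), and Spearman's correlation was -0.127 and -0.191 (permutation p = 0.716 and 0.578). For the share of counts in the 50 highest genes r was -0.561 (permutation p = 0.0888) and Spearman's correlation -0.273 (permutation p = 0.417). Over 5 measures the adjusted p for r was 0.444 or more. Without NA70 and NA64B, the libraries farthest from the median score, r was -0.657 for the total count (permutation p = 0.0445) and -0.695 for the number of genes (permutation p = 0.0311), neither adjusted. The part of depth in the results was not tested.

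The 9 affected libraries were not used to choose the sets, so the same relations could be asked in other samples. Their scores spanned 0.909 to 2.36, with A85 at 2.36 and the next, A79, at 1.52. By edgeR, 1 of 14620 genes was higher with the score (0.00684%) and 0 were lower, with 442 at an unadjusted p under 0.05. DESeq2 called 16 higher and 7 lower, and limma-voom 4 and 0. Of the 510 genes called higher in non-affected cultures, 422 were tested and 282 were positive here, or 66.8%, against 47.4% of all tested genes. Of the 356 genes called lower, 354 were tested and 241 were negative. Their share of positive slopes was 31.9%, against the 47.4% of all tested genes. Without A85 the share of positive genes was 52.2%, against 49.1% of all tested genes. Then 232 of 352 genes called lower were negative, against 7428 of all 14579 tested genes. The share of the genes called higher thus rested on A85, and the narrow range of the other 8 scores limits what these libraries can show. The affected scores also rested on few counts, with MYOG at 3 to 10 counts in every affected library. Outside A85, MYOD1 had 5 to 46 counts and CDH15 had 39 to 97.

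Among the muscle genes, TNNT2 had a slope of 2.23 in affected cultures (unadjusted p = 0.000313 by edgeR), with 8.45 CPM in A85 and between 0.3799 and 2.65 CPM in the others. TMEM8C had a slope of 1.67 (unadjusted p = 0.000812), with 5.79 CPM in A85. Neither passed adjustment over all genes, and without A85 their unadjusted p values were 0.0564 and 0.117. RBM24 had a slope of 1.67 (unadjusted p = 0.00468), which was 3.28 without A85 (unadjusted p = 0.00362, adjusted p = 0.775). CAMK2A, the first gene in non-affected cultures, had a slope of 0.59 (unadjusted p = 0.353) and ranged from 0.317 to 1.68 CPM. CHRNA1 (slope 0.15) and TNNI2 (slope 0.14) had unadjusted p values of 0.565 and 0.798.

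The gene called in affected cultures was CCK, a peptide hormone, named after its values were seen. It had 330.4 CPM in A85 and between 5.76 and 22.0 CPM in the other affected libraries, and its slope fell short of the threshold without A85 (1.78, adjusted p = 0.775). In non-affected cultures CCK was not called (slope -0.55, adjusted p = 0.406). A test of the difference in slope between the groups over all 20 libraries called 0 of 14773 genes by edgeR, with 420 at an unadjusted p under 0.05. With the rank of the score in place of its value, 1 gene was called. A different slope in affected cultures was thus not shown for CCK or the other genes named here. HINTW was at 9 counts or fewer in the affected libraries other than A76, so W transcripts largely differed along with the group. The part of W transcripts in these comparisons was not tested.

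Genes called without NA70 that no list held were named after their values were seen. CTNNAL1, an alpha-catenin-like protein, had 114, 146, 97.2, 88.2 and 94.9 CPM in the high set, against 51.3, 30.4, 31.8, 47.3 and 22.9 CPM in the low set, where NA70 did not stand out (slope without NA70 0.64, adjusted p = 0.00751). PDZRN4, a ubiquitin ligase with PDZ domains, had 32.1, 47.8, 35.6, 25.3 and 35.6 CPM in the high set, against 10.1, 14.3, 13.3, 14.1 and 6.21 CPM in the low set (adjusted p = 0.00924). STC2, a secreted glycoprotein, had 1096, 767, 674, 955 and 790.4 CPM in the high set, against 399, 396, 288, 301 and 192 CPM in the low set (adjusted p = 0.0266). For these 3 genes the sets parted without overlap, and NA70 lay close to or below another high library.

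In the other direction, CD9, a tetraspanin that takes part in cell fusion, had 5.62, 11.5, 13.1, 13.6 and 10.2 CPM in the high set, against 60.7, 59.4, 99.3, 37.6 and 98.9 CPM in the low set and 49.9 CPM in NA64. The 5 high libraries lay close together and apart from the rest (slope without NA70 -0.92, adjusted p = 0.0493). MSX2, a homeobox repressor of differentiation, had 0.511, 1.07, 0.614, 1.48 and 0.929 CPM in the high set, against 3.68, 2.38, 4.64, 3.37 and 12.1 CPM in the low set (adjusted p = 0.0493). EN1, a homeobox factor of the limb and the somite, reached 30.3 CPM in NA64B and at most 6.88 CPM elsewhere (adjusted p = 0.0343). In the affected libraries 21 of the 24 tested genes called higher without NA70 were positive, and 9 of the 13 called lower were negative. Of all tested genes 47.4% were positive there. Without A85, 15 of the 24 were positive, against 49.1% of all tested genes. Again 9 of the 13 were negative, against 7428 of all 14579 tested genes.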

How the data were processed

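According to the study's methods and its processing notes, reads were trimmed with Trim Galore 0.6.7 and cutadapt 3.4, aligned to GRCg7b with STAR 2.7.9a and quantified with Salmon 1.10.1 and tximport. The authors deposited estimated counts per gene, not normalized, of which 71.2% were whole, and these were rounded here. Positions came from RefSeq for GRCg7b by symbol, which placed 10987 of 14742 tested genes.

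TMM factors were computed over all 20 libraries. Genes whose mean count reached 10 were fitted on the score in edgeR 4.0.16 (quasi-likelihood, robust, R 4.3.3), with Benjamini-Hochberg adjustment over all tested genes except the 3 score genes. A call is an adjusted p of 0.05 or less. The SE is the slope divided by the square root of F. The steps were tested on simulated data. DESeq2 1.42.0, limma 3.58.1 and other scores, filters and samples were alternatives, and the repeats without NA70 of these were added after seeing the data.

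Genes named were the score genes, the 10 smallest p values in each direction (mean count of at least 50, with a symbol), the 4 smallest in each of 24 lists (S phase and G2/M from Seurat 5.3.0), 12 myogenic and cell cycle genes, the 10 listed muscle genes with the largest ratio, HINTW and the 5 largest Spearman correlations. DES and the other cell markers were named as such. Some genes that this rule selects are not reported here. The members and lists were chosen with earlier results of these data known. The labels give 9 bird numbers for the 11 non-affected libraries but do not describe the cultures, those with the suffix B included. The p values therefore measure the spread between these libraries. Figures were drawn with matplotlib 3.10.9.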

Additional observations from a re-analysis of the deposited data

Results flagged for a closer look

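A85 stood apart among the 9 affected libraries, measured by its gap to the next library over the range of the group. This ratio was 0.578 for the score, 0.756 for MYOD1 in CPM and 0.65 for CDH15 in CPM, each above the limit for a single distant value. MYOD1 was 9.91 CPM in A85, with a median of 0.918 CPM over the affected libraries. The score is made from these genes, so the 3 ratios are not independent, and chance alone passes this limit in some groups. The non-affected libraries were too many for this rule and were not tested.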

How the results depend on the processing

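In non-affected cultures, DESeq2 called 851 genes higher and 995 lower with the score, the rank of the score 160 and 86, and the fit without the suffix B libraries 658 and 597. Leaving out each library gave 28 (without NA70) to 714 (without NA64B) higher and 13 to 677 lower, and 219 lower without NA68. The other 11 settings stayed within 1.5 times of the counts. Of the named genes, 56 lost their call without NA70 and 35 with the rank. Without NA70, DESeq2 called 357 and 271, the rank 5 and 0, the fit without suffix B 4 and 1, that without NA61 and NA61B 19 and 2, and that with HINTW as a term 30 and 7. Leaving out a further library there gave 1 (without NA64B) to 26 higher and 0 to 11 lower. Of 17 fits run without NA70, SDC2 was called in 3, RBM24 in 7, and TNNT2 and MEIS2 in 8. BIN1, RAPSN and MYOZ2 were called in 10 of these fits, CASS4 in 12, CHRNA1 in 14, and TNNI2, TMEM8C and SARDH in 15. In affected cultures DESeq2 called 16 and 7 and limma-voom 4 and 0, the rank, the score without MYOD1 and the fit without suffix B called 0 higher, and summed birds called 1 lower. Leaving out each library there gave 0 to 5 higher and 0 lower. The difference between groups gave 1 gene with the rank. Sets without overlap held 121 genes above and 153 below without NA70, and 493 and 526 for 4 against 4 libraries without suffix B. Without the 2 libraries farthest from the median score, r turned to 0.0493 for the 50 highest genes and to 0.145 for mitochondrial genes. The cause of these differences was not tested, and fits with libraries left out also held fewer libraries. No paired analysis was possible because affected and non-affected libraries share no bird numbers, and within the non-affected libraries only 2 of 9 birds have a second library, 1 of them on both sides of the sets. Summing the libraries of a bird called 598 and 505. Depth was 15425103 counts or more, and MYOG rested on 1 count in NA64B.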

Other observations

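NA65 stood apart in genes the score does not hold, chosen after their values were seen. It was lowest of the 11 libraries in MYF5 at 6.57 CPM (14.0 CPM or more in the others), in MYF6 at 2.43 CPM (6.65 CPM or more) and in PAX3 at 4.61 CPM (14.2 CPM or more). Its MYOG level of 4.56 CPM was above the median of the other libraries, 4.25 CPM. It was highest in TEK, the receptor of angiopoietins, at 92.8 CPM (at most 7.11 CPM elsewhere), and in CDKN2B at 642 CPM (at most 322 CPM).

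CCK had 711 CPM in NA69, 317 CPM in NA61B and 176 CPM in NA68, against 98.6 CPM or less in the other non-affected libraries, and A85 had 330.4 CPM. These levels did not follow the score in non-affected cultures.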
